A study of Zea mays subsp. mays with 2 samples.

Results

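Abundant, strongly root-biased loci are transcribed stretches of the maize genome that stood high in roots and far lower in shoots. Members were chosen by level: at least 30 FPKM in roots, above 0 FPKM in shoots, and at least 8 times as much in roots as in shoots, with no pseudocount. FPKM divides the number of fragments by transcript length and by the size of the library. The rule took 317 of the 37398 listed loci, which is 0.848% of the list and 4.01% of the 7904 loci at 30 FPKM or more in roots. The levels chose the members, so levels and folds are given as a description and support nothing further.

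The series holds 2 strand-specific libraries of polyadenylated RNA, 1 from roots and 1 from shoots of B73, the inbred line behind the maize reference genome. Both organs came from plants grown in a growth chamber and collected 14 days after germination. There were no replicates, so every value below is that of a single library, no difference has a replicate check and no test was made. The sequencing depth is unknown, and the FPKM values of the listed loci summed to 1184202 in roots and 1251263 in shoots. Each library is a whole organ, in which fewer cells of a type and less RNA per cell cannot be told apart.

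Roots anchor the plant, take up water and mineral nutrients and meet soil microbes, while shoots carry out photosynthesis. In plants generally, transcripts found mainly in roots include those of nutrient transporters, cell wall enzymes and defence proteins, and many plant gene families grew by tandem duplication, which leaves copies of similar length next to each other. The table names no genes. Its 37398 locus identifiers are not gene names, so that 0 of them matched the gene table used here was to be foreseen. That gene table is for another version of the genome, and loci were not matched to genes by position. No such role is therefore given to any locus. For the same reason the organs could not be checked against marker genes. Positions are those of B73 RefGen_v2, per the file header, and span is the length of genome between the first and last base of a locus, introns included.

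The root-biased loci ran over a wide range of levels and most were faint in shoots. Their median was 74.2 FPKM in roots, with quartiles of 42.9 and 168 FPKM and a highest value of 5407 FPKM. In shoots the median was 3.41 FPKM, with quartiles of 1.29 and 7.59 FPKM and a range of 0.042 to 392 FPKM. Across all listed loci the medians were 8.20 FPKM in roots and 8.91 FPKM in the shoot library. In shoots, 60 members (18.9%) lay under 1 FPKM, 193 (60.9%) from 1 to under 10 FPKM, 59 (18.6%) from 10 to under 100 FPKM and 5 (1.58%) at 100 FPKM or more. As a group they held 6.43% of the FPKM sum of roots and 0.267% of that of shoots.

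**Figure D1:**
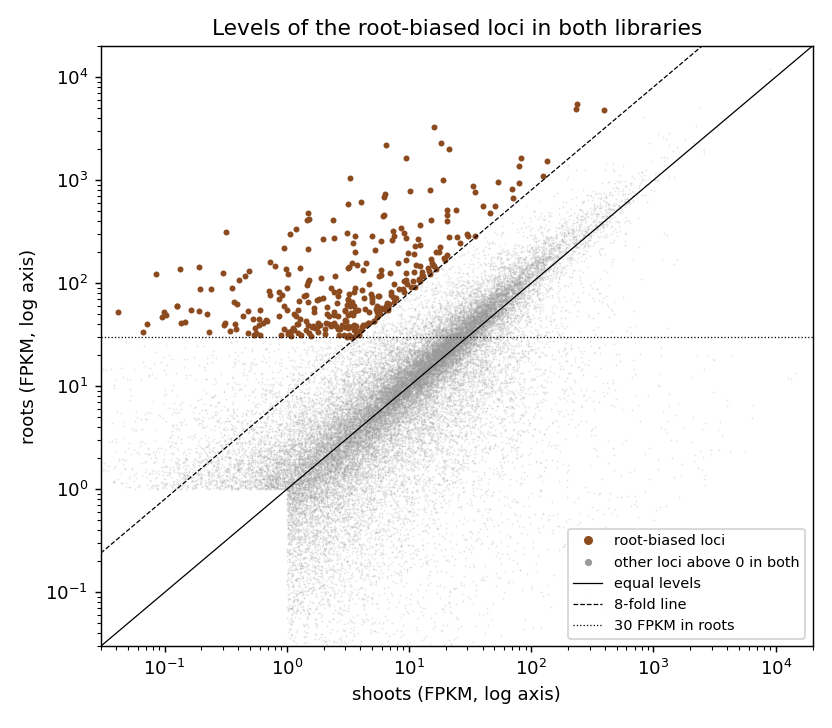
Level of each locus in roots (vertical axis) against shoots (horizontal axis), both in FPKM on log axes that start at 0.03 FPKM, 1 point per locus above 0 in both libraries. The 317 root-biased loci fill the corner above the 8-fold line and above 30 FPKM in roots, and most of them lie under 10 FPKM in shoots.

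For the median member, roots stood 22.1-fold above shoots, and the quartiles of the fold were 11.5 and 65.0. Between 8-fold and 16-fold lay 116 members, and 72 lay between 16-fold and 32-fold. A further 47 were between 32-fold and 64-fold, 36 between 64-fold and 128-fold, and 17 between 128-fold and 256-fold. The remaining 29 members (9.15%) were at least 256-fold higher in roots. The median fold was similar at low and middling levels, with 21.2 for the 99 members from 30 to under 50 FPKM in roots, 21.3 for the 91 from 50 to under 100 FPKM and 20.3 for the 79 from 100 to under 300 FPKM. It was 36.8 for the 34 members from 300 to under 1000 FPKM and 38.1 for the 14 at 1000 FPKM or more. Members made up a larger share of the loci at higher root levels, from 3.15% of 3145 loci at 30 to under 50 FPKM to 21.5% of 65 loci at 1000 FPKM or more.

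The mirrored rule, with the organs exchanged, took 893 loci that were shoot-biased, or 2.39% of the list. Root-biased members were thus fewer. They filled 4 of the 10 most abundant loci of roots, whereas the shoot-biased loci filled 9 of the 10 most abundant of shoots. Among the 100 most abundant these numbers were 19 and 68, and among the 1000 most abundant 74 and 273. Both rules select on these levels and the groups differ in size, so the numbers are a description only.

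A few loci carried much of the signal: the 10 members highest in roots held 38.8% of the group's root FPKM. The highest, P_XLOC_008182, lies at chr2:127959950-127960704 (plus strand) and was the second most abundant listed locus of roots, with 5407 FPKM there and 239 FPKM in shoots. Next came a 763 bp locus at chr1:31896751-31897513 (minus strand), with 4865 FPKM in the root library and 233 FPKM in shoots. The 1446 bp locus at chr4:152431121-152432566 (minus strand) stood at 4799 FPKM in roots compared with 392 FPKM in shoots. These 3 leading members were therefore also abundant in shoots, at 233 to 392 FPKM against an organ median of 8.91 FPKM.

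The next members in order of root level were fainter in shoots. A 390 bp locus at chr9:117172962-117173351 (plus strand) had 3289 FPKM in roots and 15.9 FPKM in the shoot library, a 207-fold difference. On the minus strand of chromosome 1, the 729 bp locus from 74263335 to 74264063 had 2276 FPKM in the root library and 18.2 FPKM in shoots. The 1205 bp locus at chr5:191910165-191911369 (minus strand) had 2166 FPKM in roots compared with 6.50 FPKM in shoots, and its 334-fold difference was the largest of the top 10. An 817 bp locus at chr10:138855507-138856323 (minus strand) stood at 1992 FPKM in roots and 21.2 FPKM in the shoot library, and it has root-biased neighbours described further on.

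The last members of the top 10 included its longest loci. On the minus strand of chromosome 1, a 6614 bp locus from 203647149 to 203653762 had 1631 FPKM in the root library and 9.45 FPKM in shoots. The 1501 bp locus at chr4:169974857-169976357 (minus strand) had 1626 FPKM in roots compared with 82.9 FPKM in shoots. The tenth, at chr3:168695539-168839001 (plus strand), spans 143463 bp, the longest of all members, and had 1543 FPKM in roots and 135 FPKM in the shoot library. No other listed locus, on either strand, overlaps that stretch. Of these 10 members, 7 are on the minus strand, 8 span 2000 bp or less and 4 were above 100 FPKM in shoots.

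The most extreme folds belonged to members of moderate root level that were near 0 in shoots. P_XLOC_000869, at chr1:49287309-49289760 (plus strand), had 124 FPKM in the root library and 0.084 FPKM in shoots, a 1467-fold difference. A 1089 bp locus at chr3:15433008-15434096 (minus strand) had 52.9 FPKM in roots compared with 0.042 FPKM in shoots, a 1271-fold difference. The minus-strand locus on chromosome 1 from 49320819 to 49323269 had 137 FPKM in roots and 0.134 FPKM in the shoot library, a 1021-fold difference. The first and last of these form a pair of nearly equal span, 31.1 kb apart. The rest of the 5 largest folds belong to one locus of 8616 bp at chr9:135298962-135307577 (minus strand), with 316 FPKM in the root library and 0.318 FPKM in shoots, and another of 1321 bp at chr2:19828184-19829504 (minus strand), with 144 FPKM in roots compared with 0.191 FPKM in shoots. At shoot levels this low the fold rests on very little signal, and how many reads stand behind it is unknown.

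At the fold threshold, the members just inside stood 8.06, 8.14 and 8.20 times higher in roots. Of these, the 137 bp locus at chr5:145511509-145511645 (plus strand) had 31.7 FPKM in roots and 3.93 FPKM in the shoot library. A 3521 bp locus on the same strand, from 205562436 to 205565956, had 136 FPKM in the root library and 16.7 FPKM in shoots, and a 1706 bp locus at chr7:134283582-134285287 (plus strand) had 54.8 FPKM in roots compared with 6.69 FPKM in shoots. The next members, both on the minus strand of chromosome 3, were an 8.25-fold higher one from 1481217 to 1482997, with 92.5 FPKM in roots compared with 11.2 FPKM in shoots, and an 8.29-fold higher one from 164567354 to 164567456, with 42.9 FPKM in roots compared with 5.17 FPKM in shoots. Just outside, 3 loci stood 7.92, 7.90 and 7.83 times higher in roots, with 361, 389 and 70.8 FPKM there and 45.6, 49.2 and 9.04 FPKM in shoots. At the level threshold, the members just inside had 30.003, 30.3 and 30.3 FPKM in roots, compared with 3.46, 3.36 and 3.09 FPKM in shoots. The loci just outside had 29.9, 29.8 and 29.7 FPKM in roots, compared with 1.25, 1.67 and 0.841 FPKM in shoots, so their folds of 23.9, 17.9 and 35.3 were well past the fold threshold. The values run on without a break across both limits.

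The requirement of a level above 0 in shoots left out 8 loci that were at 37.8 to 125 FPKM in roots and listed at 0 in shoots. Their median span was 108 bp, against 1649 bp for the members.

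Span, which the rule did not use, was concentrated at intermediate lengths. The median member spanned 1649 bp, with quartiles of 1121 and 2452 bp and extremes of 101 and 143463 bp. The median was 3790 bp for the 7587 other loci at 30 FPKM or more in roots, 2377 bp for the 893 shoot-biased loci, 4162 bp for 3979 loci at 30 FPKM or more in both organs and within 1.5-fold of each other, and 2443 bp for all listed loci. From 501 to 2000 bp lay 183 members (57.7%), compared with 17.9% of the other loci at 30 FPKM or more in roots, 35.5% of the shoot-biased loci and 26.9% of all listed loci. Above 5000 bp lay 20 members (6.31%), compared with 34.3%, 21.1% and 23.9% in the same order. Loci share one pair of libraries and are not replicates, so these shares are set side by side without a test.

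**Figure D2:**
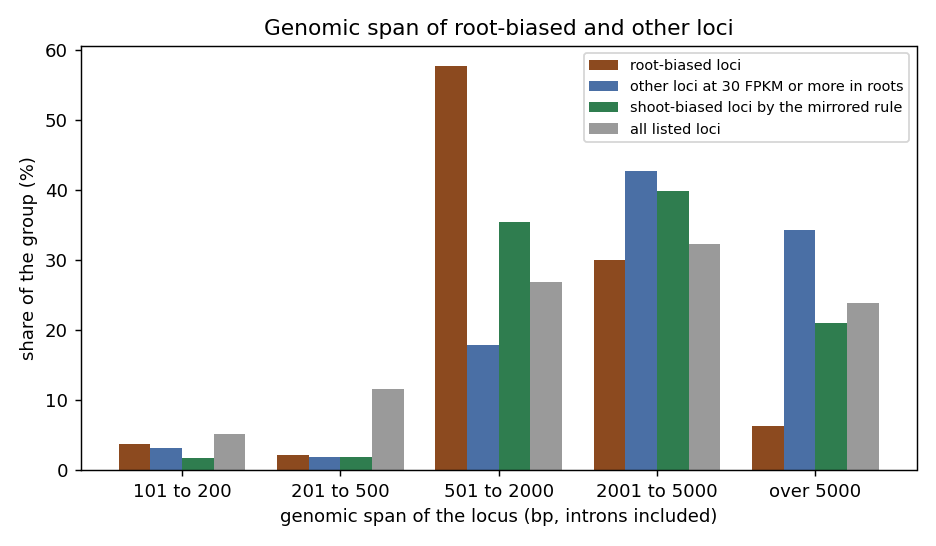
Share of each group of loci (vertical axis, %) in 5 classes of genomic span (horizontal axis, bp). The root-biased loci have 57.7% of their number at 501 to 2000 bp and 6.31% above 5000 bp, against 17.9% and 34.3% for the other loci at 30 FPKM or more in roots.

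The members were the shorter at each root level. From 30 to under 50 FPKM in roots their median span was 1673 bp, against 4294 bp for the 3046 other loci of that level. The medians were 1855 bp against 3937 bp from 50 to under 100 FPKM, 1565 bp against 3299 bp from 100 to under 300 FPKM, and 1616 bp against 2729 bp from 300 to under 1000 FPKM. At 1000 FPKM or more, 14 members had a median of 1040 bp and the 51 others one of 2904 bp. Span is not transcript length, and since FPKM is divided by transcript length, span and level are not fully independent measures.

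Within the group, the 183 members of 501 to 2000 bp had the highest root median of the span classes, with 92.5 FPKM in roots and 3.42 FPKM in the shoot library. The 95 members of 2001 to 5000 bp had medians of 68.1 FPKM in the root library and 3.46 FPKM in shoots, and the 20 above 5000 bp had 48.8 FPKM in roots compared with 2.13 FPKM in shoots. The 7 members of 201 to 500 bp had medians of 47.3 FPKM in roots and 3.77 FPKM in the shoot library. The 12 members of 101 to 200 bp had 42.1 FPKM in roots compared with 3.46 FPKM in shoots. The shoot medians thus lay between 2.13 and 3.77 FPKM, a narrower range than the root medians.

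Several of the shortest members lie within longer loci. The shortest, at chr1:22383493-22383593 (minus strand), spans 101 bp, about the 100 cycles for which the libraries were sequenced, and had 57.4 FPKM in the root library and 6.30 FPKM in shoots. It lies inside a 5874 bp locus of the same strand with 109 FPKM in roots compared with 55.5 FPKM in shoots. Of the 12 members of 200 bp or less, 6 lie inside a longer locus of their own strand, and of these longer loci 3 are at least 4-fold higher in roots with 1 FPKM added to both levels and 2 are members themselves. Whether these short members are pieces of the longer transcripts was not tested. The share lying inside a longer locus was not counted for other loci of 200 bp or less. FPKM of very short loci depends strongly on the fragment length assumed. At the other end, 5 members span over 10 kb, and 3 of these over 20 kb.

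The members were spread over both strands and all 10 chromosomes. The plus strand held 156 and the minus strand 161, so 49.2% were on the plus strand, as were 50.5% of all listed loci and 51.6% of the shoot-biased loci. The medians were 65.6 FPKM in roots and 3.19 FPKM in the shoot library on the plus strand, and 83.5 FPKM in the root library and 3.71 FPKM in shoots on the minus strand. Among the 14 members at 1000 FPKM or more in roots, 11 were on the minus strand. The strands of the other loci of that level were not counted. The most uneven splits among the 10 chromosomes were on chromosome 1, with 20 plus-strand and 35 minus-strand members, and on chromosome 7, with 13 and 6.

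Chromosome 1 carried 55 members, the most of any chromosome, and chromosome 7 carried 19, the fewest. Relative to the loci listed on each, the share was highest on chromosome 10, with 33 members of 2573 loci (1.28%), and lowest on chromosome 8, with 21 of 3391 (0.619%). The 27 members of chromosome 9 had the highest median fold, 80.2, and the 35 of chromosome 5 the lowest, 12.0. The shoot-biased loci ranged from 2.01% on chromosome 7 to 2.62% on chromosome 5.

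Along the chromosomes the members followed the listed loci, which crowd toward the ends. In the outermost 20% at each end of a chromosome's listed extent lay 176 members (55.5%), 60.3% of the other loci at 30 FPKM or more in roots, 58.1% of the shoot-biased loci and 56.1% of all listed loci. The stretch from 0 to 10% of the extent held 18.0% of the members and 14.6% of listed loci, and that from 90 to 100% held 16.7% of the members and 18.4% of listed loci. From 40 to 50%, toward the middle, were 10 members (3.15%) and 5.28% of listed loci. Members took the largest shares of listed loci from 20 to 30%, with 29 members (1.21% of the loci there), and from 70 to 80%, with 46 (1.11%).

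**Figure D3:**
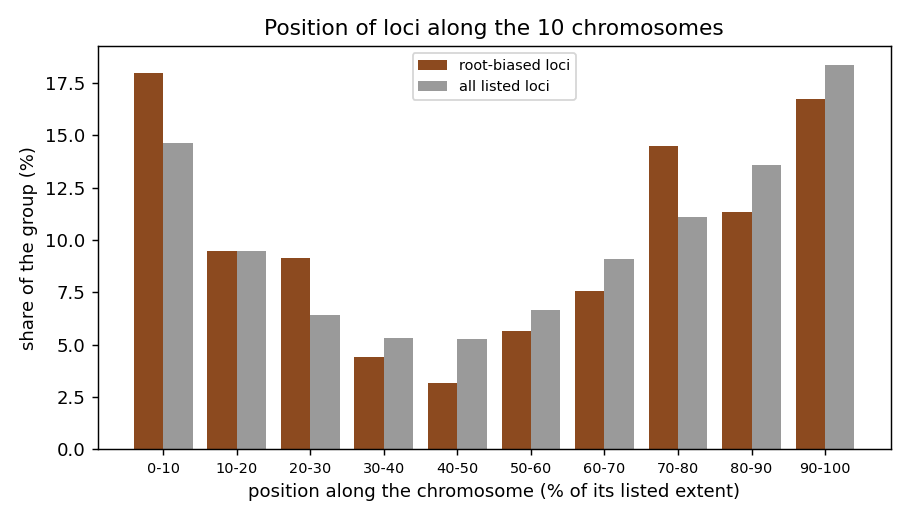
Share of the root-biased loci and of all listed loci (vertical axis, %) in steps of 10% along the listed extent of their chromosome (horizontal axis, % from first to last listed base), summed over 10 chromosomes. Both groups are most frequent near the ends, with 18.0% of root-biased loci from 0 to 10% and 3.15% from 40 to 50%.

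In windows of 5 Mb, 230 of 418 windows that held any listed locus held no member, 111 held 1, 44 held 2, 18 held 3, 11 held 4 and 4 held 5. The windows with 5 members were at 0 to 5 Mb on chromosome 4, at 135 to 140 Mb on chromosome 9, at 135 to 140 Mb on chromosome 10 and at 210 to 215 Mb on chromosome 5. The 5 members of the chromosome 10 window were among 134 listed loci (3.73%) and ranged from 31.8 to 1992 FPKM in roots and from 1.03 to 21.2 FPKM in shoots. Those of the chromosome 9 window were among 161 listed loci, at 43.9 to 316 FPKM in roots compared with 0.125 to 3.01 FPKM in shoots.

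Most members had no other member close by. At a limit of 100 kb and on either strand, 271 members (85.5%) had no other member nearby, and 46 (14.5%) fell into 21 stretches, 17 of 2 members and 4 of 3. In 11 of these stretches the members were the only listed loci. In 14 the members shared a strand, and in 7 they lay on both strands. In 2 of the stretches a member lies inside another member. Members are only 0.848% of the listed loci, and no other group was counted at this limit. The share without another member nearby is therefore a description only. The median distance from a member to the nearest listed locus of either strand was 11.8 kb, against 3.11 kb for the shoot-biased loci and 2.12 kb for all listed loci. Over 20 kb from any listed locus were 128 members (40.4%), 30.5% of the shoot-biased loci and 25.9% of all listed loci.

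Side-by-side members of similar span were few, and so were members next to each other at all. A pair was counted when 2 members followed each other among the listed loci of 1 strand, at most 50 kb apart and not overlapping, with the shorter span at least 0.8 of the longer. There were 6 such pairs on 4 chromosomes, holding 12 members (3.79%), and no set of 3 or more. The shoot-biased loci, by the same measure within their own group, formed 4 pairs (0.896% of them), and the 7587 other loci at 30 FPKM or more in roots formed 140 (3.64%). The loci about equal in both organs formed 36 (1.81%), and all listed loci together formed 2478, which took in 12.7% of them. With no limit on span, 10 pairs of members met the other conditions, and 6 of these 10 were the pairs of similar span. Similar in span were 140 of 748 such pairs of the other loci at 30 FPKM or more in roots. For the shoot-biased loci these were 4 of 26, and for the loci about equal in both organs 36 of 223. For all listed loci they were 2478 of 16596. These counts grow with the size and density of a group and were not tested. The gaps ran from 2.74 to 37.0 kb and the spans from 801 to 1881 bp.

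The pairs are taken in order of the root level of their higher locus, and single members beside a pair were chosen after their values were seen. The first pair lies on the minus strand of chromosome 10. Its 866 bp locus, from 138831642 to 138832507, had 284 FPKM in roots and 3.62 FPKM in the shoot library. Its 817 bp locus, from 138855507 to 138856323, had 1992 FPKM in the root library and 21.2 FPKM in shoots. Another member of 1075 bp follows, from 138858423 to 138859497, with 308 FPKM in roots compared with 3.11 FPKM in shoots, its span falling short of the 0.8 limit. The root levels of the paired loci differed 7.02-fold, while their folds over shoots were close, at 78.3 and 94.0, and that of the 1075 bp locus was 99.0. No other listed locus lies in this stretch.

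On chromosome 1 a minus-strand pair 28.3 kb apart had unequal levels. The 918 bp locus from 235833702 to 235834619 had 31.3 FPKM in roots and 0.534 FPKM in the shoot library. The 1121 bp locus from 235862882 to 235864002 had 268 FPKM in the root library and 11.9 FPKM in shoots. A 958 bp member from 235757590 to 235758547, too far for the pair rule, had 140 FPKM in roots compared with 3.14 FPKM in shoots. These 3 loci of 918 to 1121 bp were the only listed loci in their stretch.

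The plus-strand pair on chromosome 2 was the most unequal, 8.74-fold in roots. Its 1682 bp locus, from 216785705 to 216787386, had 266 FPKM in roots and 1.98 FPKM in the shoot library. The 1596 bp locus from 216821468 to 216823063 had 30.4 FPKM in the root library and 1.07 FPKM in shoots. The shoot levels of this pair lay closer together than its root levels.

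On the plus strand of chromosome 10, a close pair 2.74 kb apart differed 1.72-fold in roots. The 801 bp locus from 144675168 to 144675968 had 168 FPKM in roots compared with 9.52 FPKM in shoots. The 954 bp locus from 144678706 to 144679659 had 97.8 FPKM in roots and 4.68 FPKM in the shoot library. Another member of 602 bp, from 144623838 to 144624439, had 369 FPKM in the root library and 12.3 FPKM in shoots, and the short listed locus between it and the pair was about equal, with 30.2 FPKM in roots compared with 26.0 FPKM in shoots. The pair on the minus strand of chromosome 3 lay 5.90 kb apart. Its 1320 bp locus, from 145480710 to 145482029, had 135 FPKM in roots and 4.21 FPKM in the shoot library, and its 1499 bp locus, from 145487928 to 145489426, had 47.7 FPKM in the root library and 0.435 FPKM in shoots.

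The remaining pairs were singled out after their values were seen. The last same-strand pair in that order, on the minus strand of chromosome 2, had 122 FPKM in roots compared with 14.7 FPKM in shoots at 24834408 to 24836108, and 104 FPKM in roots and 9.06 FPKM in the shoot library at 24873124 to 24875004. Allowing either strand added 2 pairs, both with their 3′ ends facing each other. The convergent pair on chromosome 1 spans 2452 and 2451 bp, from 49287309 to 49289760 on the plus strand and from 49320819 to 49323269 on the minus strand. Its loci had 124 and 137 FPKM in roots, compared with 0.084 and 0.134 FPKM in shoots, a 1.10-fold difference in roots, and they are the members with the first and the third largest fold. The convergent pair on chromosome 10 spans 1632 and 1618 bp, from 1084103 to 1085734 on the plus strand and from 1087065 to 1088682 on the minus strand. It had 277 and 1042 FPKM in roots, compared with 2.42 and 3.27 FPKM in shoots. Among the 8 pairs of either orientation, root levels were within 2-fold in 3, and in all 8 both loci are root-biased by the rule itself. Similar span does not show similar sequence, and whether reads were divided between copies was not tested.

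**Figure D4:**
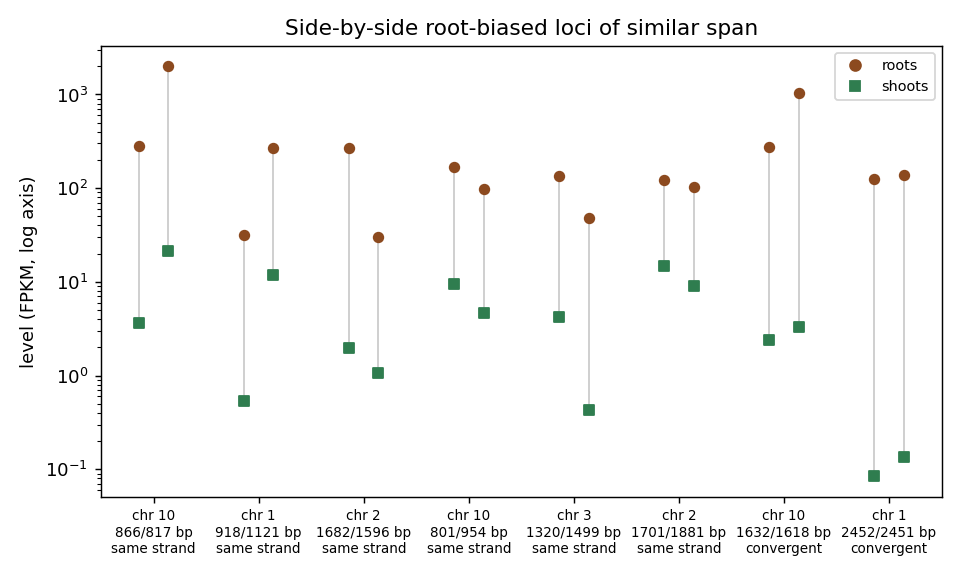
Level of each member of the 8 side-by-side pairs of similar span (vertical axis, FPKM, log axis), with circles for roots and squares for shoots joined by a line for each locus. Same-strand pairs come first in order of their higher root level, then the convergent pairs. Root levels within a pair differ from 1.10-fold on chromosome 1 to 8.74-fold on chromosome 2.

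Bias toward roots was also found at loci beside the members that the rule had not taken. The nearest same-strand loci outside the group, within 50 kb of a member, were 195 different neighbours, with medians of 9.30 FPKM in the root library and 6.58 FPKM in shoots. Of these, 35 (17.9%) were at least 4-fold higher in roots with 1 FPKM added to both levels, against 3.95% of all listed loci, and the opposite bias, 4-fold or more toward shoots, was found for 12 (6.15%), beside 7.55% of all listed loci. Being outside the group, no neighbour above 0 in shoots can be both at 30 FPKM or more in roots and at least 8-fold higher there. Beside the other loci at 30 FPKM or more in roots, 3.96% of 4020 neighbours were at least 4-fold higher in roots. These 4020 also lie outside their own group, so apart from members none of them reached 30 FPKM in roots. The members' neighbours could reach that level, so this share and the 17.9% are not like for like. Beside the shoot-biased loci, 71 of 569 neighbours (12.5%) were at least 4-fold higher in shoots. On the opposite strand, 10 of the members' 182 nearest neighbours (5.49%) were at least 4-fold higher in roots.

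The share differed with distance. Neighbours here are the loci next before and next after a member in order of start on its own strand. Of the 16 that overlap the member, 12 (75%) were at least 4-fold higher in roots. At gaps up to 1 kb, 6 of 26 (23.1%) were. At gaps over 1 to 10 kb these were 6 of 82 (7.32%), and at gaps over 10 to 50 kb 19 of 138 (13.8%). Among these 16, all 8 loci shorter than their member were at least 4-fold higher in roots, and so were 4 of the 8 longer than their member. The 8 shorter ones spanned 124 to 339 bp, with 4 of them listed at 0 in shoots. A 257 bp locus inside a 4878 bp member on chromosome 2 is not next to that member in this order. It was counted as non-overlapping, by its gap to another member. Whether overlapping and abutting loci of a strand are pieces of one transcript was not tested. With neighbours under 1 kb away left out, the share among nearest neighbours was 10.98%, and with overlapping loci left out 12.3%.

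**Figure D5:**
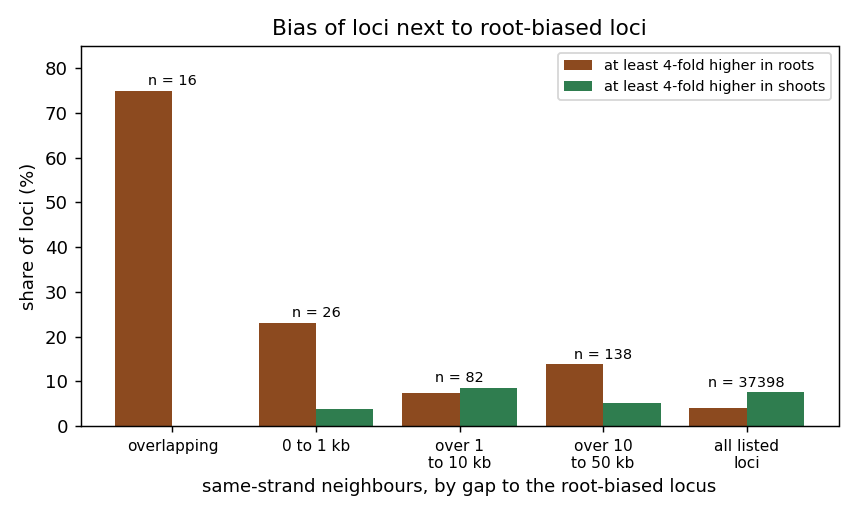
Share of same-strand neighbours outside the group (vertical axis, %) that were at least 4-fold higher in roots or in shoots, with 1 FPKM added, by gap to the root-biased locus (horizontal axis), beside all listed loci. Neighbours are the loci next before or after a root-biased locus in order of start. The share higher in roots is 75% among those that overlap it, 7.32% at over 1 to 10 kb and 13.8% at over 10 to 50 kb, against 3.95% of all listed loci.

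Among non-overlapping neighbours of similar span outside the group, 10 of 47 (21.3%) were at least 4-fold higher in roots and 4 (8.51%) in shoots. Of neighbours of other span, 21 of 199 (10.6%) were higher in roots and 11 (5.53%) in shoots. Of the 47, 22 lay within 2-fold between the organs with 1 FPKM added to both levels. In the deposited values, 6 of the 47 stood higher in roots than the member beside them. The following examples were chosen after their values were seen. On the plus strand of chromosome 2 the 2635 bp member from 3224667 had 54.0 FPKM in roots compared with 3.63 FPKM in shoots. The 2875 bp locus 1.74 kb away had 21.4 FPKM in roots and 0.378 FPKM in the shoot library, so both were root-biased and the neighbour missed the rule by its level alone. On the plus strand of chromosome 3 the 2268 bp member from 187609671 had 406 FPKM in the root library and 2.39 FPKM in shoots. Its 2139 bp neighbour 5.04 kb away had 15.9 FPKM in roots compared with 489 FPKM in shoots, the opposite bias. A further such pair lies on the minus strand of chromosome 5, where the 1652 bp member from 62596260 had 106 FPKM in roots and 12.0 FPKM in the shoot library. The 1914 bp locus next to it had 3.50 FPKM in the root library and 78.1 FPKM in shoots, and the gap between them is 21 bp.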

How the data were processed

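Polyadenylated RNA was sequenced for 100 cycles from 1 root and 1 shoot library, single-end and strand-specific, per the labels' protocols. The authors deposited FPKM values per locus with positions on B73 RefGen_v2, per the file headers. The submitters' processing notes name TopHat, Cufflinks and Cuffdiff but no version; their parameters were not given in the sources used here. Every listed locus exceeds 1 FPKM in at least 1 library (lowest row maximum 1.00 FPKM).

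Samples were grouped by tissue label. Folds are ratios of the deposited FPKM; neighbours were called at 4-fold with a pseudocount of 1 FPKM, which understates the change of low loci. Loci named were the 10 members highest in roots, the 5 with the largest and the 5 with the smallest fold, the 3 on each side of each threshold, the shortest and longest members and the 5 same-strand pairs highest in roots by their higher locus; others are said to be chosen after their values. The members and rules were chosen with earlier results of these data known. Thresholds, scalings, the pseudocount, joining of loci within 1 kb, pair limits and neighbour distances were varied. Scripts were tested on simulated data. Python 3.11.15, pandas 2.3.3, NumPy 2.4.6 and matplotlib 3.10.9 were used.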

Additional observations from a re-analysis of the deposited data

How the results depend on the processing

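The number of root-biased loci was 626 at 4-fold, 201 at 16-fold, 617 at 10 FPKM and 127 at 100 FPKM, and the other 8 settings, scalings and pseudocounts included, gave 288 to 359. The median span was 1736 bp at 4-fold and 1513 bp at 16-fold, and it stayed under the 2443 bp of all listed loci in all 7 settings. The share on the plus strand was 43.3% at 100 FPKM, and the share in the outermost 10% at each chromosome end was 34.7%, against 33.0% of all listed loci. Side-by-side pairs numbered 2 within 20 kb, 3 at a span ratio of 0.9 and 23 at 4-fold and 10 FPKM, and the share of members in a pair was 1.26% within 20 kb and 1.89% at a span ratio of 0.9. Root-biased neighbours made up 25.6% with 0.1 FPKM added, against 7.24% of all listed loci, and 7.18% with 5 FPKM added, against 1.58%. They made up 10.98% with neighbours under 1 kb away left out and, in settings added after seeing the data, 12.3% without overlapping loci and 23.4% when members counted as neighbours. Members are root-biased by the rule itself, so the 23.4% is raised by construction. The counts of members and pairs move by construction with the thresholds. For the changes in span, strand share and the other neighbour shares the cause was not tested. Of 53 settings, 36 stayed close to the value reported. For counts this means within 1.5 times, and for the rest within the 95% sampling interval, which takes loci as independent. The tally is not a measure of stability. Leaving out pairs under 1 kb apart could change nothing, since the smallest gap was 2.74 kb. The pair settings were scored for both the number and the share of pairs, and the 23.4% is among the 36. No paired analysis was possible because roots and shoots were each sequenced as a single library, so that leaving out a library was not possible either. With depth unknown, folds over shoot levels near 0 are imprecise to an unknown degree.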

Other observations

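Signal from the strand opposite to the members was mostly faint. Of the 317 members, 24 (7.57%) overlap a listed locus of the other strand. The share was close to this, at 8.41%, for the other loci at 30 FPKM or more in roots. It was 8.24% for the loci about equal in both organs, 11.6% for the shoot-biased loci and 9.56% for all listed loci. Members had the shortest median span of these groups, and overlap at like span was not counted. The 24 members have 26 partners, with a median overlap of 420.5 bp. In roots the partners stood at a median of 3.58% of the member's level, with quartiles of 1.76% and 24.4%. The rule sets the member's level at 30 FPKM or more, which itself lowers this percentage, and other groups were not measured in this way. The partners' medians were 3.59 FPKM in roots and 2.001 FPKM in the shoot library. At least 4-fold higher in roots were 3 of the 26 partners (11.5%), against 3.95% of all listed loci. The opposite bias, 4-fold or more toward shoots, was found for 1 partner, beside 7.55% of all listed loci.

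In 1 case the partner was the stronger. The 107 bp member at chr5:205579753-205579859 (plus strand) had 30.3 FPKM in the root library and 3.36 FPKM in shoots. The 27296 bp locus on the minus strand that covers it had 58.2 FPKM in roots compared with 38.2 FPKM in shoots. The part of imperfect strand separation in these values was not tested. A different arrangement lies on chromosome 8, where the minus-strand member from 4348465 to 4350696 and the plus-strand member from 4359928 to 4361142 point away from each other. They had 297 and 242 FPKM in roots, compared with 1.06 and 3.45 FPKM in shoots, and their spans of 2232 and 1215 bp are not similar. Both examples were chosen after their values were seen.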
